A study of Mus musculus with 8 samples.

Results

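The Fos, Jun and Egr genes are immediate early genes, and 10 of them were followed here: Fos, Fosb, Fosl1, Fosl2, Jun, Junb, Jund, Egr1, Egr2 and Egr3. They were chosen by name, as the probes whose accession maps to one of these symbols, which gave 16 probes of 10 genes among 45586 genes on the array. The samples were mammary tumour cells of bitransgenic mice with the sSHIP reporter and the C(3)1 Tag transgene. In the reporter the promoter of the short SHIP1 isoform, internal to Inpp5d, drives GFP, and C(3)1 regulatory sequence directs the SV40 tumour antigens, viral inhibitors of tumour suppressors, to mammary epithelium. Both compared groups carry both transgenes. One group was Lin-CD49f+GFP+ cells and the other Lin-CD49f+GFP- cells, each with 4 arrays, and the titles give both groups the numbers 566, 567, 573 and 631. A number is read here as a tumour, which the labels do not state. Nothing in the labels says that the numbers are separate animals, so p-values measure the spread between these samples. Age, sex and the antibodies that defined the lineage gate are not given in the sources used here.

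Immediate early genes are transcribed within minutes of a stimulus, without new protein synthesis, when kinase cascades act on transcription factors that already sit at their promoters. Fos proteins pair with Jun proteins through leucine zippers to form AP-1, a dimer that binds DNA, and Egr proteins bind GC-rich DNA through zinc fingers. Enzymatic dissociation and sorting of live cells are themselves known stimuli for these genes. Here the tumours were dissociated with an enzyme kit and sorted on GFP and CD49f before RNA was taken, so levels in the intact tumour were not measured.

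The regions before the start sites of 4 members are shown because their genes span the patterns below: Fos and Jun varied little between arrays, Junb was lower in GFP+ cells of each tumour and Fosl2 differed between tumours. The sequences are RefSeq's, build GRCm38.p6, each the 250 bases before the annotated start, read 5′ to 3′ on the gene's strand. Capitals mark TGACG (the core of the cyclic AMP response element, either strand), TGACATCA (a variant AP-1 site known from the Jun promoter) and GCGNGGGCG (the site of Egr proteins).
Fos chr12:85473640-85473889, plus strand: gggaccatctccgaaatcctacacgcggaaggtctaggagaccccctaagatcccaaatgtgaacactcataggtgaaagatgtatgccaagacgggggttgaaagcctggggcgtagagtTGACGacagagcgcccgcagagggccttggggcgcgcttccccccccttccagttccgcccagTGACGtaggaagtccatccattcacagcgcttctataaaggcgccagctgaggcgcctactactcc
Jun chr4:95052223-95052472, minus strand: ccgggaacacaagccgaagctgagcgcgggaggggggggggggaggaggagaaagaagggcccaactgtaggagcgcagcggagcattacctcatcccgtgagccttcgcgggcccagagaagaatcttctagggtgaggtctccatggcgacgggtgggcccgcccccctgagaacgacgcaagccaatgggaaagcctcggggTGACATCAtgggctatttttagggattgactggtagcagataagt
Junb chr8:84978749-84978998, minus strand: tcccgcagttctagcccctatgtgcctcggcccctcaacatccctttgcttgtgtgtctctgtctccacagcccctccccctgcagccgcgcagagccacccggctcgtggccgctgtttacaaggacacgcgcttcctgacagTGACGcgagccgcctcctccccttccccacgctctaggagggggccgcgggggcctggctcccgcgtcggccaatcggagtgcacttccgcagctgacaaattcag
Fosl2 chr5:32136222-32136471, plus strand: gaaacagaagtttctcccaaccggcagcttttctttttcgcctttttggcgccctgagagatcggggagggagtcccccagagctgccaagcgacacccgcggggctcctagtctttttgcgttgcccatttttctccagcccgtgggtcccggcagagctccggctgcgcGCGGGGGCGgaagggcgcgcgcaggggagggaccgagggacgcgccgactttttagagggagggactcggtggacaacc
The fifth is a stretch of 30 bases before an annotated Egr2 start, with the CArG box, the site of serum response factor, in capitals.
Egr2 chr10:67537787-67537816, plus strand: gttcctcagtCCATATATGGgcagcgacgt
Of the 10 members, 7 had an entry in the promoter table, and Fosl1, Egr1 and Egr3 had none. Over the 250 bases before a start, searched on both strands, TGACG was found for 4 of the 7 (Fos, Fosb, Junb and Egr2) and in 17.8% of 32851 promoters. The CArG box was found for 1 of the 7, Egr2, and in 1.47% of promoters. TGACATCA was found for Jun and in 2.93%, and GCGNGGGCG for Fosb and Fosl2 and in 4.70%. The full element TGACGTCA, which contains TGACG, was found for 0 of the 7 and in 1.55%, and the AP-1 site TGANTCA for 0 and in 6.75%. A member counts if any of its promoters matched, while the shares are per promoter. The 7 members have 11 promoters, several of them of Egr2, so the units differ. These are matches of letters, not measured sites.

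Levels are log2 processed intensity minus that array's 75th percentile, so 0 is that percentile. Levels of different genes come from different probes and are not compared. The share of gene spots that passed the scanner's background test was 53.5% to 58.5% on 7 arrays and 34.1% on the GFP+ array of tumour 573, whose lowest such signal was 142 intensity units against 13.4 to 23.5 elsewhere. All members were well above background on all 8 arrays by the probe used, except Fosl1, which was not on the GFP+ array of 573. No member spot was saturated. Inpp5d, whose internal promoter drives the reporter, was higher in the GFP+ cells of each tumour, with a mean difference of 1.98 (SE 0.59) on the log2 scale, but was not well above background on the GFP+ array of 573. Itga6, the gene of the sorted marker CD49f, had levels of 4.06 to 5.46. Ptprc, the leukocyte gene, was well above background on no array, but it was the only such gene of 15 macrophage and monocyte genes listed. The T cell genes Cd4 and Cd3e were well above background on all 8 arrays, so Ptprc alone does not show that leukocyte RNA was absent. The GFP+ arrays filled one column of the slide and the GFP- arrays the other, so an effect of the column cannot be told apart from one of the population. In the design of 4 against 4 arrays, limma with Benjamini-Hochberg adjustment called 0 of 20265 genes (0%) between the populations at an adjusted p under 0.05, and 161 genes had an unadjusted p under 0.05. The smallest member's unadjusted p was that of Junb.

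**Figure D1:**
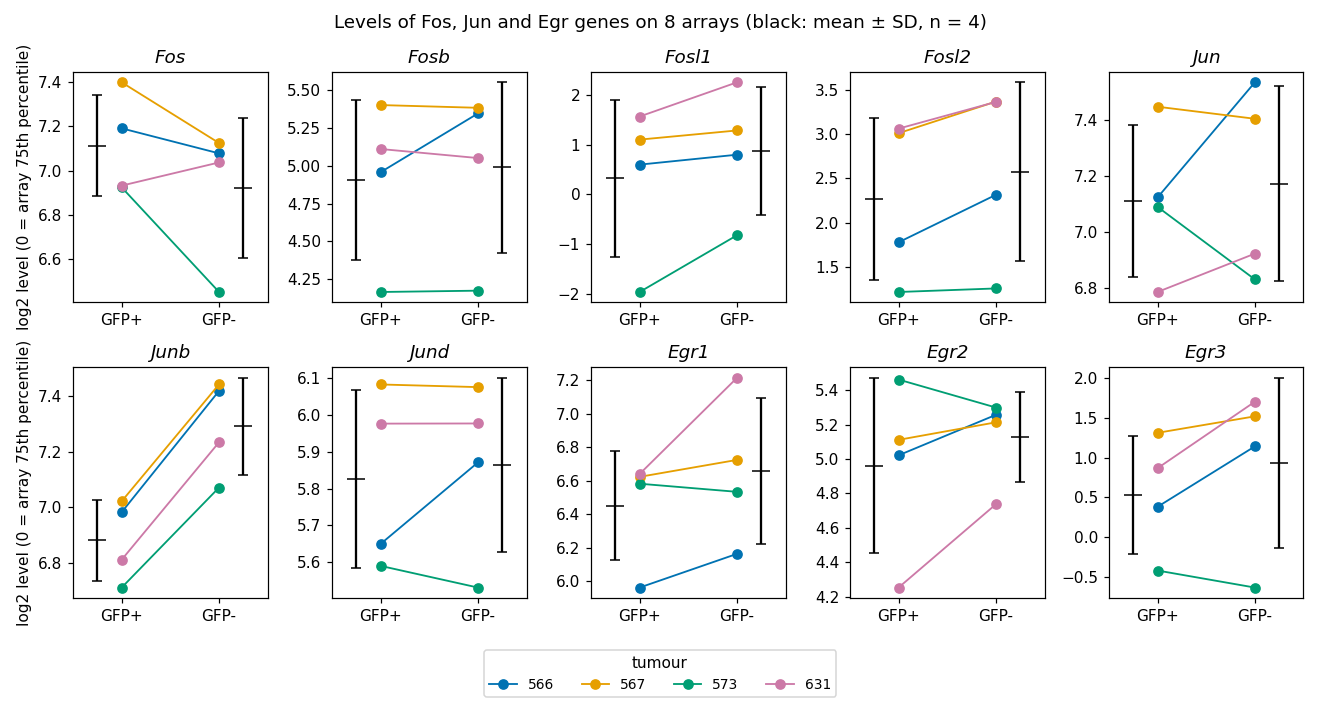
Log2 level (y axis, 0 is the array's 75th percentile, with its own scale in each panel) of each gene in GFP+ and GFP- cells. Points are arrays, lines join the arrays of a tumour, and black bars are the mean ± SD of 4 arrays. With this scaling the populations of Junb do not overlap, as they do with 4 other scalings. For Fos, Fosb, Fosl1, Fosl2, Jund and Egr3 both arrays of tumour 573 lie lowest.

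Junb was lower in the GFP+ cells of all 4 tumours under each of 5 scalings, without passing the test. JunB is a Jun protein that often restrains growth and competes with c-Jun for Fos partners. Its level in GFP+ cells was 6.98, 7.02, 6.71 and 6.81 in tumours 566, 567, 573 and 631, and in GFP- cells 7.42, 7.44, 7.07 and 7.23. All 4 GFP+ arrays lay below all 4 GFP- arrays, which held for 0.686% of genes tested, and Junb was the only member of which it held. The means were 6.88 ± 0.15 (SD, n = 4) and 7.29 ± 0.17 (SD, n = 4). The difference was -0.41 (SE 0.18; 95% interval -0.82 to 0.01), or 0.753 of the GFP- level. It was -0.44, -0.42, -0.36 and -0.42 in the 4 tumours. This evenness belonged to the scaling. With quantile normalization the tumour differences ran from -0.80 to -0.01, with median centring from -1.03 to -0.20, with a percentile over detected probes from -0.50 to -0.19 and with normexp background correction from -0.72 to -0.42, and in each of these the populations overlapped. The median of all genes was itself at -0.06, and Junb minus that median was -0.35. The difference did not pass limma's test (unadjusted p = 0.0528, adjusted p = 1). With the tumour as a block the interval was -0.71 to -0.11, limma's unadjusted p was 0.0161 and the adjusted p was 0.889. A second Junb probe differed by -0.34. Leaving out single arrays or tumours gave -0.48 to -0.35. With all GFP+ arrays below all GFP- arrays, that could not turn the sign, so it is no check of the direction. Other scalings, filters and probe rules gave -0.52 to -0.34, all of the same sign, though filters and a block left the value unchanged.

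Fos, the founding member of its family, had a mean difference of the other sign, alone among the 10. Its level was 7.19, 7.40, 6.92 and 6.93 in GFP+ cells and 7.08, 7.12, 6.45 and 7.04 in GFP- cells of tumours 566, 567, 573 and 631. The GFP+ arrays were higher in 3 tumours and lower in 631, and the populations overlapped. The difference was 0.19 (SE 0.23; 95% interval -0.32 to 0.70; limma adjusted p = 1), less than the SD within either population (0.23 and 0.32). Within a tumour the difference of one gene minus that of another does not depend on the constant subtracted from each array, though it does under quantile normalization. The Fos difference exceeded that of Junb in all 4 tumours, by 0.55, 0.69, 0.83 and 0.32. This pair was singled out after its values were seen. The differences of Fosb, Jun and Jund also exceeded that of Junb in all 4 tumours, and those of the other 5 members in 2 or 3.

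By the probes used, the other Jun genes showed no such gap. Jun encodes c-Jun, the main transcriptional activator of the family, and JunD is its most constantly expressed relative. Jun was at 7.12, 7.45, 7.09 and 6.78 in GFP+ cells and 7.54, 7.41, 6.83 and 6.92 in GFP- cells, lower with GFP in 566 and 631 and higher in 567 and 573. Its difference was -0.06 (SE 0.24; interval -0.61 to 0.49). Jund was at 5.65, 6.08, 5.59 and 5.98 against 5.87, 6.08, 5.53 and 5.98, nearly level in each tumour except 566. Its difference was -0.04 (SE 0.21, interval -0.52 to 0.44). A second Jund probe gave -0.18 and was lower in GFP+ cells of all 4 tumours. It was at 5.68, 6.04, 5.47 and 5.84 against 6.04, 6.05, 5.68 and 5.95. The mean of Jun turned to 0.06, 0.02 or 0.05 without the GFP- array of 566, the GFP- array of 567 or the GFP+ array of 631, and that of Jund to 0.02 without the GFP+ array of 566. Without both arrays of 566, 567 or 631 the mean of Jun was 0.06, -0.10 or -0.04. Without both arrays of 566 that of Jund was 0.02. With quantile normalization, or a percentile over detected probes, both means were above 0, at 0.0021 and 0.0046 for Jun and 0.035 and 0.027 for Jund.

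The Fos-related genes other than Fos had lower means in GFP+ cells. Fosl1 encodes Fra-1, an AP-1 protein linked to invasive breast cancer cells, and Fosl2 encodes Fra-2. By the probes used, both were lower in GFP+ cells of all 4 tumours, as was Junb. That makes 3 of 10 members, of which Fosl1 passed the filter on dim probes only through GFP- cells, where it was higher, and so adds no support. In all, 10.8% of genes tested were lower in all 4 tumours, and 0 members were higher in all 4 (3.39% of genes). Under quantile normalization, median centring, a percentile over detected probes and normexp the count was 2, 2, 2 and 5, against 11.0%, 7.08%, 6.34% and 14.7% of all genes. Fosl2 turned in 573 with quantile normalization and with a percentile over detected probes, and Fosl1 turned in 567 with median centring. A second, dim Fosl2 probe differed by -0.13. It was higher in GFP+ cells of 573, at -3.29 against -4.13, and lower in the other tumours. It was well above background on 3 of 4 GFP+ arrays and passed the filter only through GFP- cells. Fosl1 was at 0.60, 1.10, -1.97 and 1.56 in GFP+ cells and 0.80, 1.28, -0.83 and 2.25 in GFP- cells. Its difference was -0.55 (SE 0.86; interval -2.50 to 1.40), and with the tumour as a block the SE was 0.20 and the interval -1.04 to -0.07 (limma adjusted p = 0.889). It included -1.14 in 573, where the GFP+ value was not well above background. Without that array it was 0.21, and without both arrays of 573 it was -0.36. Fosl2 was at 1.78, 3.01, 1.22 and 3.06 against 2.31, 3.36, 1.26 and 3.36, a difference of -0.31 (SE 0.59; interval -1.64 to 1.02), which was 0.04 without the GFP+ array of 573. With the tumour as a block the SE of Fosl2 was 0.14 and the interval -0.66 to 0.04. Fosb, which also yields the long-lived splice form ΔFosB, was at 4.96, 5.40, 4.16 and 5.11 against 5.35, 5.39, 4.17 and 5.05. Its difference was -0.08 (SE 0.36; interval -0.89 to 0.73), with -0.39 in tumour 566 and 0.02, -0.01 and 0.06 in the others. It turned to 0.04, 0.05 or 0.17 without the GFP- array of 566, the GFP- array of 567 or the GFP+ array of 573, and a second probe gave 0.15. Without both arrays of 566, 567 or 573 the Fosb difference was 0.02, -0.11 or -0.10.

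The Egr genes were lower on average in GFP+ cells, and the sign in tumour 573 depended on the scaling. Egr1 is a broad growth-factor response gene, Egr2 is best known from myelinating Schwann cells, and Egr3 is needed for muscle spindles. Egr1 was at 5.96, 6.62, 6.58 and 6.64 in GFP+ cells and 6.16, 6.72, 6.53 and 7.21 in GFP- cells. Egr2 was at 5.02, 5.11, 5.46 and 4.25 against 5.26, 5.21, 5.30 and 4.74. Egr3 was at 0.38, 1.31, -0.42 and 0.87 against 1.14, 1.52, -0.63 and 1.70. In each of the 3 genes the GFP+ array was lower in tumours 566, 567 and 631 and higher in 573, and the populations overlapped. With median centring all 3 were lower in 573 and higher in 567, and with normexp Egr1 and Egr2 were lower in 573. The differences were -0.21 (SE 0.28; interval -0.83 to 0.42) for Egr1, -0.16 (SE 0.28; interval -0.81 to 0.48) for Egr2 and -0.40 (SE 0.56; interval -1.67 to 0.88) for Egr3. With the tumour as a block these intervals were -0.58 to 0.17, -0.54 to 0.21 and -0.91 to 0.12. The Egr2 difference was 0.07 without the GFP+ array of 631 and -0.06 without both arrays of 631. A second Egr3 probe that passed the filter gave -0.33, and the last was well above background on 1 of 4 GFP- arrays and was not used.

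**Figure D2:**
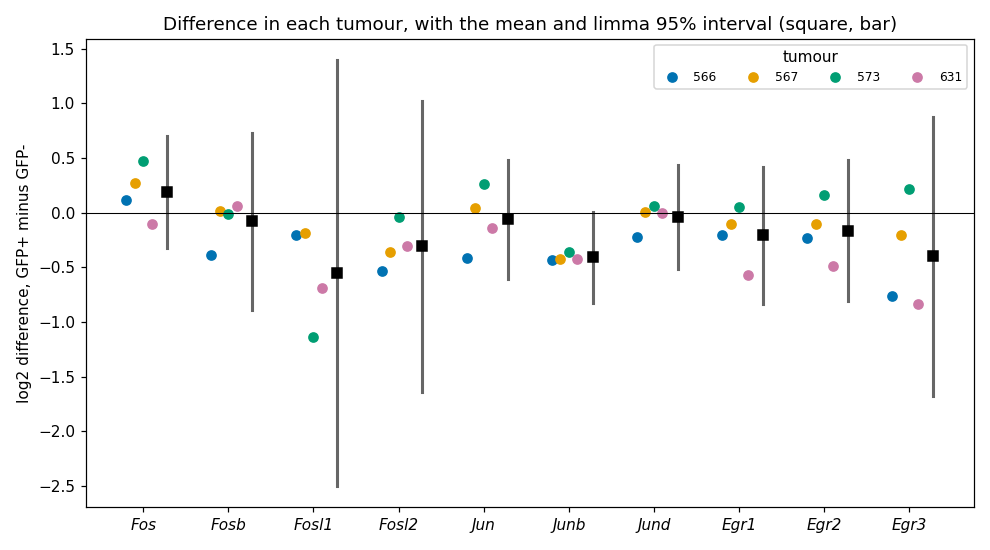
Log2 difference, GFP+ minus GFP- (y axis), for each gene (x axis). Coloured points are the 4 tumours, squares the mean and grey bars limma's 95% interval without a block. The 4 points of Junb lie between -0.44 and -0.36, those of Fosl1 between -1.14 and -0.18, and each interval of this fit includes 0, while with the tumour as a block those of Junb (-0.71 to -0.11) and Fosl1 (-1.04 to -0.07) do not.

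Over the 10 members 9 means were below 0, with a median of -0.19, while 63.5% of all 20265 genes were below 0, with a median of -0.06. The member medians were -0.31, -0.10, 0.05 and -0.36 in tumours 566, 567, 573 and 631, against 0.02, -0.01, -0.09 and -0.20 over all genes. With quantile normalization, or with a percentile over detected probes, 7 of 10 means were below 0, and without the GFP+ array of 573 or without tumour 566 it was 6. Median centring moved the median of all genes to -0.16. The share of all genes above 0 was 36.5%, 20.4% with median centring and 52.3% with a percentile over detected probes. It was 50.8% with a common floor and 64.8% with no filter on dim probes, where the median of all genes was 0.19. The 63.5% below 0 thus belongs to the main filter and scaling, here and beside the lists that follow. Members with an unadjusted p under 0.05 numbered 0 (0.794% of all genes), and 2 with the tumour as a fixed block, Junb and Fosl1 (5.49% of all genes), both lower. With a random block it was Junb alone (4.96% of all genes), and the unadjusted p of Fosl1 was 0.205. Fosl1 was kept only through GFP- cells, and its GFP+ value in 573 was not well above background. None passed after adjustment over all genes in limma without a block, with a fixed block or with a random block. Intervals without a block also hold the variation between tumours. With the fixed block they were -0.18 to 0.55 for Fos and -0.43 to 0.27 for Fosb. For Jun the interval was then -0.45 to 0.32 and for Jund -0.36 to 0.28. Pericyte markers were mostly lower in GFP+ cells, though 0 passed limma's adjusted test. Of 12 listed, 11 were lower in GFP+ cells, and their summed intensity, in multiples of the 75th percentile, was 45.7 to 60.6 in GFP+ cells and 62.2 to 84.8 in GFP- cells. Rgs5 and Higd1b, the 2 listed genes of smallest p, differed by -2.85 and -2.83 (limma adjusted p = 0.675 for each). They were well above background on 3 of 4 GFP+ arrays, so they passed the filter only through GFP- cells, where they were higher. Of macrophage markers, 7 of 9 tested were lower, and their sum was 21.9 to 31.0 in GFP+ and 24.0 to 36.4 in GFP- cells. All 7 endothelial genes tested had higher means in GFP+ cells, with sums of 3.46 to 51.7 against 3.04 to 7.71, but only 3 were higher in all 4 tumours. Their median difference was 3.37, 0.92, -0.33 and 0.006 in tumours 566, 567, 573 and 631. Of fibroblast, luminal and basal markers, 6 of 10, 14 of 14 and 10 of 12 had higher means, and 2, 3 and 1 were higher in all 4 tumours. The luminal median difference was 0.32, 0.79, -0.16 and 3.62 in tumours 566, 567, 573 and 631. The fibroblast, luminal and basal sums were 35.5 to 438, 351 to 624 and 127 to 290 in GFP+ cells and 50.6 to 607, 336 to 490 and 80.5 to 242 in GFP- cells. Of T and NK cell markers 1 of 3 was higher, with sums of 4.20 to 7.86 against 5.17 to 7.30. Cd3g and Cd8a were well above background on no array, while Cd4 and Cd3e were on all 8. The part of these cell types in the Junb difference was not tested. In sorted cells measured in bulk, fewer cells with an RNA and less of it per cell cannot be told apart.

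For 9 of the 10 members the tumour held a larger share of the variation than the population. The same count over all genes was not made, but their median tumour share was 76.8%. The count is thus not read as particular to the members. The tumour held 92.9% of the sum of squares of Fosl1, 95.6% of Fosl2, 95.7% of Fosb, 92.4% of Jund, 87.4% of Egr3, 84.3% of Egr2, 80.5% of Egr1, 78.3% of Jun and 69.4% of Fos. For Junb it held 31.2%, the population 68.5% and the rest 0.354%. With quantile normalization or median centring the population held 25.6% or 24.8% of the Junb variation and the tumour 55.9% or 65.6%, so that the tumour share was then larger for all 10. The median share of the tumour was 85.8% over the members and 76.8% over all genes tested. The tumour term has more degrees of freedom than the population term, so the shares are a description.

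**Figure D3:**
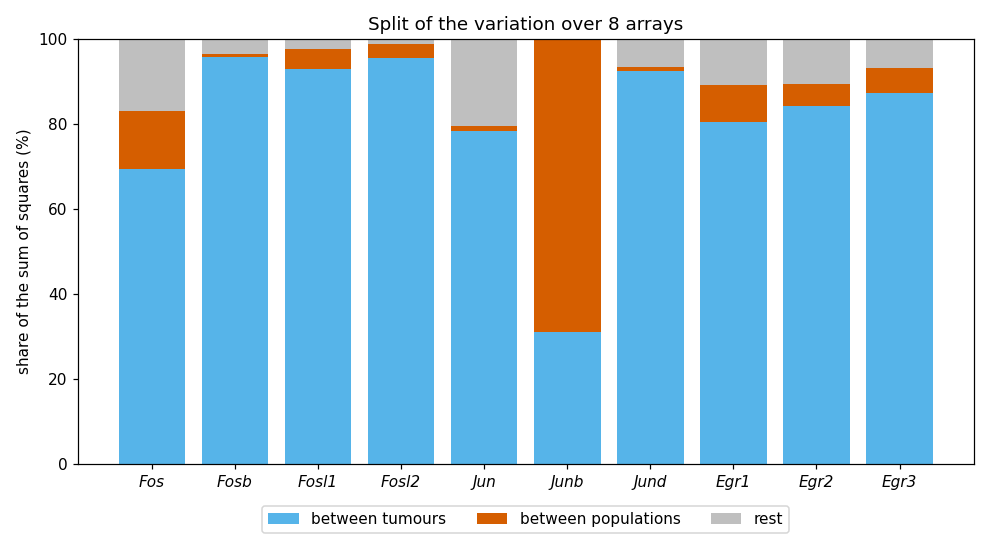
Share of each gene's sum of squares over 8 arrays (y axis, percent) between tumours (blue), between populations (orange) and the rest (grey). With this scaling Junb has 68.5% of its variation between populations (25.6% with quantile normalization, 24.8% with median centring), and the other 9 have at least 69.4% between tumours.

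A limma F-test between the 4 tumours, with the population as a covariate and adjustment over all genes, called 4 of the 10 members, Fosl1, Fosl2, Egr3 and Fosb, and 28.8% of all genes. The tumour means of the same 4 members spanned more than 1, as did those of 38.4% of all genes. Counted together, 4 of 10 is near these shares. The count over all genes, 5834, was 2878, 2676, 1570, 1500, 3386 or 3089 without the GFP+ array of 566, the GFP- array of 566, the GFP+ array of 567, the GFP- array of 567, the GFP+ array of 573 or the GFP- array of 631. Without both arrays of 567, 573 or 631 it was 2260, 3159 or 3221. Each tumour had a single array per population. The error of the test is thus the variation between those 2 arrays beyond the mean population difference, not between repeats of a tumour. The 2 arrays of a tumour also share its dissociation and sorting, so tumour and handling cannot be told apart here.

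Fosl1 spanned the widest range. Its tumour means were 1.91 in 631, 1.19 in 567, 0.70 in 566 and -1.40 in 573, a span of 3.31 or 9.89-fold (limma F-test adjusted p = 0.00702). No pair of neighbours in that order overlapped in their arrays. The lowest value, in GFP+ cells of 573, was not well above background, but the GFP- array of 573, which measured Fosl1 well above background, was also below every array of the other tumours. Among tumours 566, 567 and 631 alone the adjusted p was 0.0542.

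Fosl2 was high in 631 and 567, with means of 3.21 and 3.19 and overlapping arrays, then 2.04 in 566 and 1.24 in 573. The span was 1.97, or 3.93-fold (limma F-test adjusted p = 0.0072), and Fosl2 was the only member still called without tumour 573. Egr3 had means of 1.42 in 567 and 1.29 in 631, then 0.76 in 566, each overlapping its neighbour, and -0.53 in 573, below the rest (span 1.94; limma adjusted p = 0.018). Its adjusted p was 0.0658 or 0.0645 without the GFP+ or the GFP- array of 567, 0.0531 without both and 0.205 without tumour 573, and 0.0991 with a common floor and 0.222 with no filter on dim probes. Without that filter Fosl1 and Fosl2 were not called either, each at an adjusted p of 0.183. Fosb had means of 5.39 in 567, 5.15 in 566, 5.08 in 631 and 4.17 in 573 (span 1.23, or 2.34-fold; limma adjusted p = 0.0242), and 566 overlapped 631. The Fosb call was lost without either array of 567 (0.0963 and 0.0939), without either array of 573 (0.105 and 0.101), without tumour 567 (0.08) and without tumour 573 (0.549). It was also lost with quantile normalization (0.0913), a common floor (0.0592) and no filter on dim probes (0.269).

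The other 6 members did not pass the test between tumours. Fos spanned 0.57 (7.26 in 567 to 6.69 in 573), Jun 0.57 (7.43 in 567 to 6.85 in 631), Jund 0.52 (6.08 in 567 to 5.56 in 573) and Junb 0.34 (7.23 in 567 to 6.89 in 573). Their limma adjusted p-values were 0.212, 0.181, 0.181 and 0.354. Neighbouring tumours overlapped at every step for Junb, and at none for Jund. Egr1 and Egr2 followed other orders. Egr1 was highest in 631 at 6.93 and lowest in 566 at 6.06 (adjusted p = 0.0859), while Egr2 was highest in 573 at 5.38 and lowest in 631 at 4.49 (adjusted p = 0.0754). Tumour 573 had the lowest mean for 7 of the 10 members and for 25.01% of all genes, and tumour 567 the highest for 6 members and for 16.1% of all genes. Both arrays of 567 lay above both of 573 for 8 of the 10 members and for 29.5% of all genes, a comparison chosen after the values were seen. Under the 4 other scalings it held for 7 to 10 members and 26.2% to 56.2% of all genes, and 573 was the lowest tumour for 7, 8, 6 and 8 members with quantile normalization, median centring, a percentile over detected probes and normexp, against 38.0%, 65.4%, 21.1% and 28.5% of all genes.

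Each of the 3 members with the largest SD was set beside the genes whose centred profile over the 8 arrays was nearest, by root mean square difference on the log2 scale. The 8 arrays form 4 pairs, and the likeness is a description. Nearest to Fosl1 were Dusp9, a phosphatase of MAP kinases, at 0.20, Hmga1, a chromatin protein, at 0.31, Rgs16, a regulator of G-protein signalling, at 0.33, Vat1 at 0.35 and Plaur, the urokinase receptor, at 0.35. Plaur had tumour means of 4.89 in 631, 4.35 in 567, 3.20 in 566 and 1.67 in 573, the same order as Fosl1. Dusp9, Hmga1, Rgs16 and Vat1 had that order too, which follows from choosing genes by likeness of profile. Nearest to Fosl2 were Cep170, a centrosomal protein, at 0.09, Ptgfrn at 0.12, Ankrd50 at 0.16, Spryd3 at 0.17 and Tor4a at 0.17. Nearest to Egr3 were Nectin1, an adhesion protein, at 0.18, Ckap4 at 0.19, Slc25a37 at 0.22, Efnb1 at 0.24 and Gpc1 at 0.24. Among the members themselves the nearest pair was Fos and Jund, at 0.20, and the farthest Egr2 and Fosl1, at 1.55.

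The other genes of the pathway were taken from 5 lists, in which 0 genes passed limma's adjusted test between the populations. Of 30 other immediate early and dissociation response genes, all tested, 26 had lower means in GFP+ cells, against 63.5% of all genes. Their median was -0.25, and 10 were lower in all 4 tumours, against 10.8% of all genes. Gadd45b, a stress-induced gene, differed by -0.54 (SE 0.26) with -0.49, -0.61, -0.84 and -0.23 in the 4 tumours. Socs3, a feedback inhibitor of cytokine signalling, differed by -0.41, Ier2 by -0.28 and Ccn1, a secreted matrix protein, by -0.27. Between tumours 18 of the 30 passed the F-test, against 28.8% of all genes, and 573 had the lowest mean for 21, against 25.01% of all genes.

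Heat shock and chaperone genes, another group that dissociation can induce, had a median of -0.05, with 8 of 13 lower (63.5% of all genes). Hspb1, a small heat shock protein, differed by 0.50 (SE 0.41) and was higher in GFP+ cells of all 4 tumours, by 0.31, 0.85, 0.31 and 0.52. Dnajb4, Dnajb1 and Hspd1, all chaperones or cochaperones, differed by -0.42, -0.15 and -0.12. Summed over the list, intensity was 574 to 819 multiples of the 75th percentile in GFP+ cells and 575 to 801 in GFP- cells, so the ranges overlapped. Tumour 573 was lowest for 10 of the 13 (25.01% of all genes), and 6 passed the F-test between tumours (28.8%).

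Upstream kinases and transcription factors had a median of -0.09, with 18 of 25 lower (63.5% of all genes). Elk4, a partner of serum response factor, differed by 0.61 (SE 0.34), with 1.41 in 573 and 0.71 in 566. Creb1 and Atf1, which bind cyclic AMP response elements, differed by -0.19 and -0.20, and the kinase gene Rps6ka1 by 0.25. Dimer partners, corepressors and turnover factors had 13 of 15 tested, 9 lower (63.5% of all genes) and a median of -0.18. Maf differed by -0.44 (SE 0.63) with -0.45, -0.37, -0.48 and -0.44 in the tumours, Mafg by -0.38, Atf4 by -0.23 and Nab2, a corepressor of Egr proteins, by -0.24. In the F-test between tumours 7 genes of each list passed (28.8% of all genes).

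AP-1 and Egr target genes had 16 of 20 tested, 12 lower (63.5% of all genes) and a median of -0.12. Vegfa differed by -0.74 (SE 0.41) with -1.83 in 573. Il6, Mmp9 and F3 differed by -1.07 (SE 0.97), 0.95 (SE 0.98) and 0.59 (SE 0.64), with signs that differed between tumours, and Il6 and Mmp9 were well above background on 3 of 4 GFP+ arrays. Of the 16, 15 passed the F-test between tumours (28.8% of all genes), with a median span of 2.35 against 0.82 over all genes, and 573 was the lowest tumour for 13 of them (25.01% of all genes). These lists overlap in function with the members and were chosen with earlier results known.

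**Figure D4:**
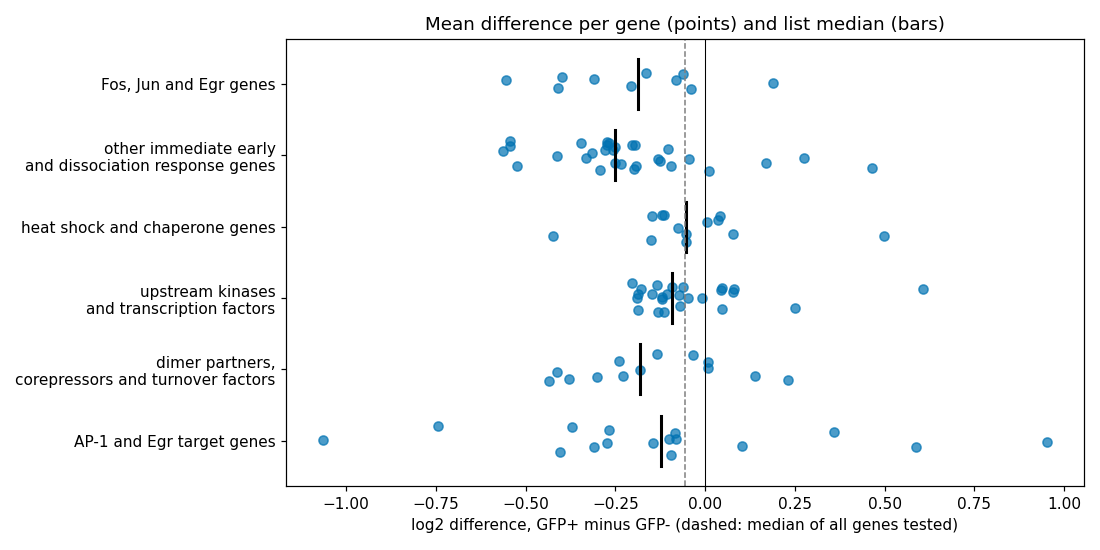
Mean log2 difference, GFP+ minus GFP- (x axis), of each tested gene (points) in the members and 5 further lists (y axis, points scattered vertically within a list). Black bars are list medians, from -0.25 for the other immediate early genes to -0.05 for the heat shock genes, and the dashed line is the median of all genes tested, -0.06.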

How the data were processed

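Total RNA labelled with Cy3 was measured on 8 single-colour arrays, 4 per population. The deposited values are spot intensity from Agilent Feature Extraction 10.7.3.1, background-subtracted and detrended per the file headers, with the version from the submitters' processing notes, and not normalized between arrays. The deposited series table holds the same intensity for all 62976 spots of each array, within a relative tolerance of 1e-05. Flags of 0 or 1 in the files mark spots as well above background, saturated or outlying; these other columns are the authors' scanner output. All arrays came from 1 slide.

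Control and outlier spots were left out and log2 values of repeated spots averaged, which kept 56555 of 56605 probes. Accessions were matched without versions to RefSeq, assembly GRCm38.p6, for names only, and 32969 probes matched a symbol. Each array's 75th percentile over gene spots was subtracted. A probe was kept if either population had it above background on each of its 4 arrays (26316), and of several probes the brightest on average was used, which gave 20265 genes. Differences are GFP+ minus GFP-, fitted with limma 3.58.1 in R 4.3.3, threshold 0.05. The fits were tested on simulated data. The members and lists were chosen with earlier results of these data known. Named genes are the 10 members, the 4 genes of smallest p from each pathway list and 2 from marker lists where used, the 5 nearest genes to 3 members, and Inpp5d and Itga6. Ptprc is also named, as a leukocyte marker chosen after its values were seen.

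The title numbers pair the arrays. After subtraction of the population means, the 2 arrays of a number correlated over genes at 0.573, 0.695, 0.642 and 0.741, and arrays of different numbers at 0.221 or less. Alternatives were other scalings, normexp with an offset of 50 on the median signal (the mean signal was not used here), other filters, a common floor, the mean of all probes, a fixed or random tumour block, and each array or tumour left out. The number of arrays limits the precision.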

Additional observations from a re-analysis of the deposited data

Results flagged for a closer look

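Of 31 groups of 4 values examined (each member's levels in each population, and the 4 tumour differences of each member and of their median), 4 had 1 value far from the other 3, where chance gives about 1 in 20. Fos in GFP- cells of tumour 573 was at 6.45, below 7.04 to 7.12 in the others. Egr1 in GFP+ cells of 566 was at 5.96, below 6.58 to 6.64. Egr2 in GFP- cells of 631 was at 4.74, below 5.21 to 5.30. The Fosb difference in tumour 566 was -0.39, against -0.01 to 0.06 in the others.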

How the results depend on the processing

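The count of genes called between populations was 0 under all 25 alternatives, replicate block included, where limma with the block had 1113 genes at an unadjusted p under 0.05. The median member difference ran from -0.29 to -0.12 over other settings and from -0.30 to -0.07 with arrays or tumours left out. Of 229 member differences recomputed, 211 kept their sign and 18 turned, all without a call. With a tumour block or another filter each member difference was unchanged, and with a common floor only that of Fosl1 moved. These values, and those of Junb with arrays or tumours left out, are counted among the 211 but are no separate check of the sign. Jun was at 0.0021 and 0.0046, and Jund at 0.035 and 0.027, with quantile normalization and with the percentile over detected probes, and Fosb at 0.036 with the mean of all probes. With arrays or tumours left out, Fosb ran from -0.35 to 0.17, Fosl1 from -1.12 to 0.21 and Fosl2 from -0.75 to 0.041. Jun then ran from -0.18 to 0.059, Jund from -0.27 to 0.022 and Egr2 from -0.33 to 0.072. A single array left out keeps its partner in the fit, so such values also hold differences between tumours. Genes called between tumours numbered 2463 with quantile normalization, 0 without a filter on dim probes (7666 at limma's unadjusted p under 0.05) and 1501 with a common floor, and 1500 to 5054 with arrays or tumours left out. Members called numbered 0 without the filter (0% of all genes), 6 with normexp (35.2%), and 1 to 4 with arrays or tumours left out (7.11% to 24.9%). The cause was not tested. The Junb populations overlapped under each other scaling. Signal over background limits Fosl1 in tumour 573. The tumour block changed no adjusted call.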
